A study of Mus musculus with 24 samples.

Results

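The lung transcriptome after 6 h of ozone was compared with that of lungs in air, with the arrays of 2 C3H strains of mice pooled. Of the 24 arrays of the series, 12 were used: the 6 whose labels name 6 h of ozone and the 6 whose labels name air. They came from the left lung lobes of 12 individual male mice, 3 C3H/HeOuJ (OuJ) and 3 C3H/HeJ (HeJ) after 6 h of ozone, and 3 OuJ and 3 HeJ in air. OuJ mice have a sufficient Tlr4, the receptor for bacterial lipopolysaccharide, and HeJ mice a dominant negative one. The allele is carried in every cell of a HeJ mouse, and the strains may differ at other loci. The series follows the lung's response to ozone with and without a working Tlr4, and the pooled comparison asks which transcripts had moved at the earliest time in both strains. Strain entered the model as an additive term, so each change is an average over the strains. The sources used here do not give the ozone concentration, the age of the mice or the time of day of sampling.

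Ozone is an oxidant gas that reacts with the fluid lining the airways and alveoli, and its products reach the epithelium and the macrophages beneath. Cells answer oxidants through NRF2, a transcription factor that is released from its inhibitor KEAP1 and binds antioxidant response elements in genes of glutathione synthesis and detoxification. Metallothioneins, small cysteine-rich proteins that bind zinc, are induced through metal response elements by the factor MTF1 and also by glucocorticoids. Glucocorticoids, the adrenal hormones released in stress, act through a receptor that binds DNA and raises a set of genes shared by many tissues, such as Fkbp5, Tsc22d3, Zbtb16 and Per1.

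Few transcripts passed at 6 h. Of 8008 genes tested, 12 passed at an adjusted p under 0.05 in limma (0.15%), 8 higher (0.0999%) and 4 lower (0.05%) after ozone than in air. The higher ones were Mt2, Rgcc, Gclc, Fas, Osgin1, Serpina3n, Fbxo31 and Aldh3a1, and the lower ones Wnt3a, Mmp11, Hes1 and Apln. Of these, 11 had all 3 ozone arrays beyond all 3 air arrays in each strain, in the same direction. The exception was Mt2. Over all genes, 69 were separated upwards in this way (0.862%) and 84 downwards (1.05%). The median change of all genes was -0.02, and 13 genes had values beyond 1 in either direction. All changes are differences of log2(signal + 16), ozone minus air, ± SE from 6 ozone and 6 air arrays, and a gene said to stand at a value has this difference. For genes of low signal this scale understates the change. The count of 12 depended on single arrays: it was 179 without HeJ ozone replicate 1 and 53 without OuJ ozone replicate 2, and all 12 genes were among those called in either case. It was 7 without HeJ air replicate 3, 6 without OuJ ozone replicate 3 or HeJ ozone replicate 2, and 5 without OuJ air replicate 1 or 2, OuJ ozone replicate 1, HeJ air replicate 1 or HeJ ozone replicate 3. With no adjustment, 454 genes were higher and 565 lower at a limma p under 0.05. When arrays were centred on their medians, 24 passed (21 higher, 3 lower).

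**Figure D1:**
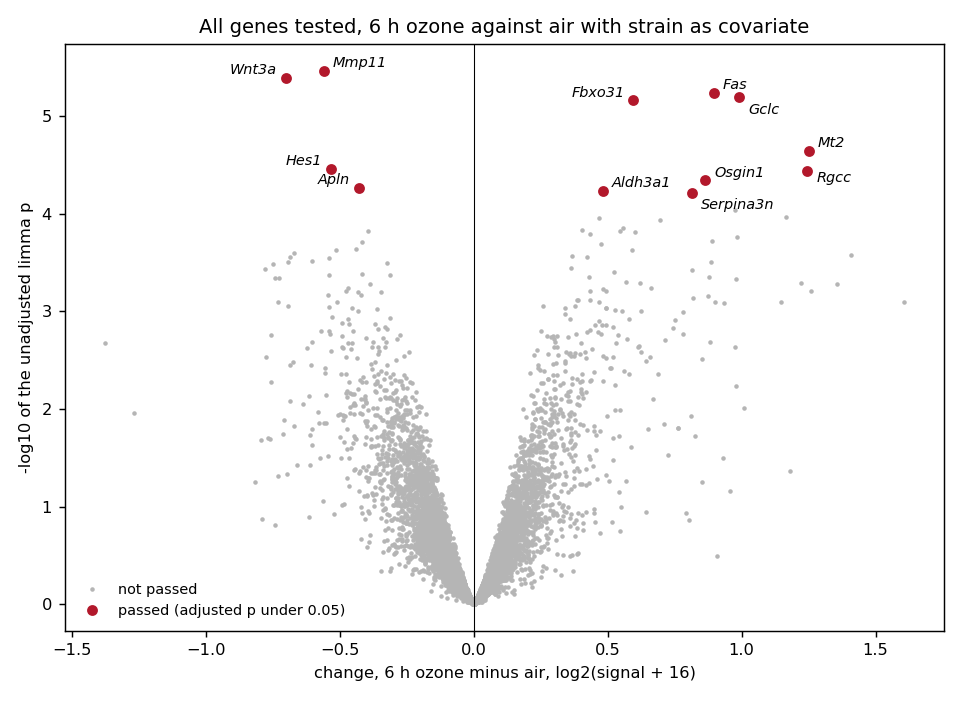
Change of each of the 8008 genes after 6 h of ozone relative to air (x axis, difference of log2(signal + 16) with strain as a covariate) against the -log10 of its unadjusted limma p (y axis). The 12 genes that passed are named in red, 8 to the right and 4 to the left, and genes that did not pass reach changes as large as 1.61 with a lower y value.

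Signals were alike in level over the 12 arrays, while the strains differed in signs of RNA quality. Median signals lay between 211.1 and 227.7, an array had 9.03% to 10.8% of its probe sets under a signal of 16, and arrays of a group correlated at a Pearson r of 0.955 to 0.980 across genes, which are not independent replicates. RNA quality was read from the 5' to 3' ratio of control probe sets, which for Gapdh was 0.765 ± 0.145 in ozone and 0.700 ± 0.168 in air (SD, n = 6; two-sided exact permutation p = 0.1 within strain, 0.2 after Benjamini-Hochberg adjustment over 2 controls, where 0.005 is the smallest p possible). For actin it was 0.750 ± 0.0974 in ozone and 0.759 ± 0.128 in air (SD, n = 6; exact permutation p = 0.945, adjusted 0.945). The strains did not overlap in either ratio. For Gapdh it was 0.841 to 0.931 in OuJ ozone and 0.586 to 0.714 in HeJ ozone, against 0.781 to 0.933 in OuJ air and 0.511 to 0.621 in HeJ air. For actin it was 0.759 to 0.911 in OuJ ozone and 0.642 to 0.694 in HeJ ozone, against 0.848 to 0.890 in OuJ air and 0.571 to 0.690 in HeJ air. With the Gapdh ratio as a covariate 101 genes passed, among them all 12. All 12 arrays carry sample codes of series 3, and 2 of these codes, HeJ ozone replicate 2 and HeJ air replicate 2, carry a suffix. Without these 2 arrays 0 genes passed in limma, with 944 at an unadjusted p under 0.05. Precision is limited by how few arrays there are. The tissue was lung by its defining markers. Surfactant protein C (Sftpc, alveolar type 2 cells) had signals of 33944 to 40839 (median 36613) after 6 h of ozone, against 27216 to 39702 (median 38687) in air, and secretoglobin Scgb1a1 (club cells) had 28533 to 34956 (median 32714) after 6 h of ozone, against 24983 to 37184 (median 31730) in air. Ager of alveolar type 1 cells (14454 to 19231 in ozone, 12834 to 17294 in air) and endothelial Cldn5 (6512 to 8669 in ozone, 5422 to 9671 in air) were bright on every array as well. Tlr4 itself had signals of 220.5, 161 and 217 in OuJ ozone and 225, 188 and 265 in HeJ ozone, against 208, 254 and 199.9 in OuJ air and 244, 213 and 228 in HeJ air. These ranges overlapped, and its change was -0.08 ± 0.12, adjusted p = 0.83. A transcript level does not check an allele that alters the protein. In whole lobes, fewer cells of a type and less RNA per cell cannot be told apart.

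Metallothionein 2 had the largest rise among the genes that passed. Mt2 (Entrez gene 17750) had signals of 3629.7, 2419 and 3778 in OuJ ozone and 1775, 2642 and 3949.8 in HeJ ozone, against 864, 1054 and 868 in OuJ air and 1337, 1665 and 1827 in HeJ air. In OuJ every ozone array stood above every air array, whereas in HeJ replicate 1 of the ozone arrays lay inside the air range. The pooled change was 1.25 ± 0.21, adjusted p = 0.0304, with 1.78 ± 0.24 in OuJ and 0.72 ± 0.24 in HeJ. Its neighbour Mt1, whose product has the same zinc-binding role, did not pass: the change was 0.71 ± 0.19, adjusted p = 0.112, with 1.24 ± 0.20 in OuJ and 0.18 ± 0.20 in HeJ. Mt1 signals were 4286, 2191 and 4157 in OuJ ozone and 2293, 2509.8 and 2847 in HeJ ozone, against 1563, 1318 and 1397 in OuJ air and 2037, 2496 and 2204 in HeJ air. The HeJ air arrays thus lay above the OuJ air arrays for both metallothioneins. The other members of the list, 11 zinc exporters, importers and the regulator Mtf1, lay between -0.21 (the importer Slc39a14) and 0.10, and none passed. Over the 13 tested members, 1 passed, higher, beside 0.0999% of all genes. The median of the 13 was 0.01, beside -0.02 for all genes, and its sign differed between alternatives.

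Upstream sequences of the metallothioneins are shown because both hold matches to the metal response element core. The 250 bases before the start are given 5' to 3' from RefSeq (build GRCm38.p6), in lower case with the metal response element core, TGCGCNC or TGCACNC on either strand, in capitals. Mt2 lies at chr8:94172368-94172617 (+ strand) and Mt1 at chr8:94178839-94179088 (+ strand).
Mt2: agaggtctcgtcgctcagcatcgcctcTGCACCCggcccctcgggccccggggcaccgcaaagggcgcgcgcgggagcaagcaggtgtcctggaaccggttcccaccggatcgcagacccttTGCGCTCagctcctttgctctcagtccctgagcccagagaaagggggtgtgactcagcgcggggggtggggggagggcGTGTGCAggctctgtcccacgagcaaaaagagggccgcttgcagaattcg
Mt1: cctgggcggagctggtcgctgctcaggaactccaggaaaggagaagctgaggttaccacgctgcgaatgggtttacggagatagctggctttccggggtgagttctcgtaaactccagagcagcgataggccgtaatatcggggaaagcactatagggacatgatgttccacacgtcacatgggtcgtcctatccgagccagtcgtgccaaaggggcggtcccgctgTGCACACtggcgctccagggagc
The Mt2 window holds 3 matches, starting 223, 128 and 50 bases before the start, and the Mt1 window holds 1, starting 23 bases before it. Bases outside these windows were not searched, so the counts do not give all elements of either gene. Such a core is common: it was found in 29.5% of the 8422 promoters of tested genes that RefSeq's table holds and in 21.4% of all 32851. Among the 8 genes that rose, 6 had a promoter in RefSeq's list, and Mt2 was the 1 with the core. Of the 4 genes that fell, 3 had a promoter there, and 1 of them, Wnt3a, held the core as well.

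Gclc, which encodes the catalytic part of the enzyme that limits the rate of glutathione synthesis, rose after ozone. Its signals (Entrez gene 14629) were 1677, 1718 and 1844 in OuJ ozone and 1025, 1641 and 1063 in HeJ ozone, against 567, 709.6 and 717 in OuJ air and 763, 722 and 907 in HeJ air. All 6 ozone arrays lay above all 6 air arrays. The change was 0.99 ± 0.15, adjusted p = 0.011, a 1.99-fold difference, and a second probe set of the gene gave 0.61. Among the other tested genes of synthesis and cystine import, all 4 had positive values and none passed. The cystine transporter subunit Slc3a2 came nearest with 0.24 ± 0.08, adjusted p = 0.223. Of the 16 genes of reduction and conjugation none passed. The transferase Gsta3 stood at 0.43 ± 0.11, adjusted p = 0.109, and the gastrointestinal-type peroxidase Gpx2 at 0.36 ± 0.10, adjusted p = 0.127. Over the 21 tested members of the glutathione list, 1 passed, higher, beside 0.0999% of all genes. Positive values were found in 17, beside 3498 of the 8008 genes tested, and the median was 0.13.

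A pair of other NRF2 targets also rose. Osgin1 (Entrez gene 71839), an oxidative stress-induced growth inhibitor, had signals of 235 to 389 (median 341) after 6 h of ozone, against 122 to 224 (median 156) in air. The 6 ozone arrays stood above all air arrays, and the change was 0.87 ± 0.15, adjusted p = 0.0405. Aldh3a1 (Entrez gene 11670), an aldehyde dehydrogenase that removes products of lipid peroxidation, had 319 to 403 (median 386) after 6 h of ozone, against 240.3 to 290.1 (median 264) in air. Here too the groups did not overlap, with a smaller change of 0.48 ± 0.09, adjusted p = 0.0406. The thioredoxin reductase Txnrd1 also had separate groups, with signals of 1424 to 1990.1 (median 1549.7) after 6 h of ozone, against 1106 to 1317 (median 1176) in air. Its change of 0.41 ± 0.08 had an adjusted p of 0.0581. The small Maf protein Maff, a partner of NRF2, stood at 0.82 ± 0.19, adjusted p = 0.0813, and Nfe2l2, which encodes NRF2, at 0.29 ± 0.10, adjusted p = 0.223. The classical targets Nqo1 and Hmox1 did not pass, with changes of -0.11 ± 0.13, adjusted p = 0.779, and 0.02 ± 0.12, adjusted p = 0.951. They fall outside the naming rule and were chosen after their values were seen. In all, 2 of 25 tested members passed, both higher, beside 0.0999% of all genes, 21 had positive values, beside 3498 of the 8008 genes tested, and the list median was 0.05, close to the -0.02 of all genes. The mean level of the list, which includes the members with the larger changes named above, lay at 10.31 to 10.44 in the ozone arrays. It was 10.18 to 10.30 in the air arrays, a narrow gap without overlap. In HeJ ozone replicate 3, the lowest of the ozone arrays, 8 members lay above all own-strain air arrays and 7 below.

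Fas, Fbxo31 and Rgcc, which act in cell death and the cell cycle, rose too. Fas (Entrez gene 14102), the death receptor, had signals of 496, 499 and 362 in OuJ ozone and 229, 282 and 278 in HeJ ozone, against 277, 182 and 200 in OuJ air and 159.5, 118 and 159.6 in HeJ air. The strains differed in level, so 1 HeJ ozone array lay within the range of the OuJ air arrays, while within each strain the groups did not overlap. The change was 0.90 ± 0.13, adjusted p = 0.011. Fbxo31 (Entrez gene 76454), the substrate receptor of an SCF ubiquitin ligase that in human cells degrades cyclin D1, had 348 to 444 (median 400.5) after 6 h of ozone, against 225 to 293 (median 260.2) in air. Its 6 ozone arrays formed a narrow range above the air arrays, with a change of 0.60 ± 0.09, adjusted p = 0.011. Rgcc (Entrez gene 66214), a regulator of the cell cycle first described as a complement response gene, had 4814, 2619 and 4588 in OuJ ozone and 1691, 3763 and 5570.4 in HeJ ozone, against 1635, 1619.6 and 1631 in OuJ air and 1196, 1369 and 1575 in HeJ air. The change was 1.25 ± 0.22, adjusted p = 0.0367, and ozone arrays spanned more than a 3-fold range while the air arrays lay close together. A second probe set of Rgcc gave 0.92. The upstream window of Fbxo31 is shown because it holds an antioxidant response element core, TGACNNNGC on either strand, in capitals. It lies at chr8:121578807-121579056 (- strand) of GRCm38.p6, from RefSeq.
Fbxo31: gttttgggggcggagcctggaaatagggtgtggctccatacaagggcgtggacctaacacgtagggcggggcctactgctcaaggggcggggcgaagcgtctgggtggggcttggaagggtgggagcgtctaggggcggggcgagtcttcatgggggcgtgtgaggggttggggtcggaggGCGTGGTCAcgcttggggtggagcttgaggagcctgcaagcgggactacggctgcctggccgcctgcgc
The match starts 69 bases before the start. Of the 6 risen genes with a promoter in the table, 2 hold this core, Fbxo31 and Mt2, beside 11.3% of the promoters of tested genes. The window of the NRF2 target Osgin1 holds no match, and a window of Per1, which did not pass, holds 2.

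The 4 genes that fell encode secreted and nuclear regulators of growth and matrix. Wnt3a (Entrez gene 22416), a Wnt ligand, had signals of 207 to 288 (median 254) after 6 h of ozone, against 346 to 438 (median 429) in air. Mmp11 (Entrez gene 17385), the matrix metalloproteinase stromelysin-3, had 248 to 354 (median 289.9) after 6 h of ozone, against 407 to 489 (median 438) in air. In both genes every ozone array lay below every air array, with changes of -0.70 ± 0.10, adjusted p = 0.011, and -0.56 ± 0.08, adjusted p = 0.011. Apln (Entrez gene 30878), the precursor of the vascular peptide apelin, was separated as well, at 881 to 1158 (median 981) after 6 h of ozone, against 1182 to 1519 (median 1357) in air. Its change was -0.43 ± 0.08, adjusted p = 0.0406. Hes1 (Entrez gene 15205), a transcriptional repressor downstream of Notch, had 633, 607 and 669 in OuJ ozone and 970, 924 and 959 in HeJ ozone, against 1169, 965 and 777 in OuJ air and 1386, 1183 and 1467 in HeJ air. HeJ levels were higher in both conditions, and the groups were separated within each strain but not over all 12 arrays. The change was -0.53 ± 0.09, adjusted p = 0.0367.

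**Figure D2:**
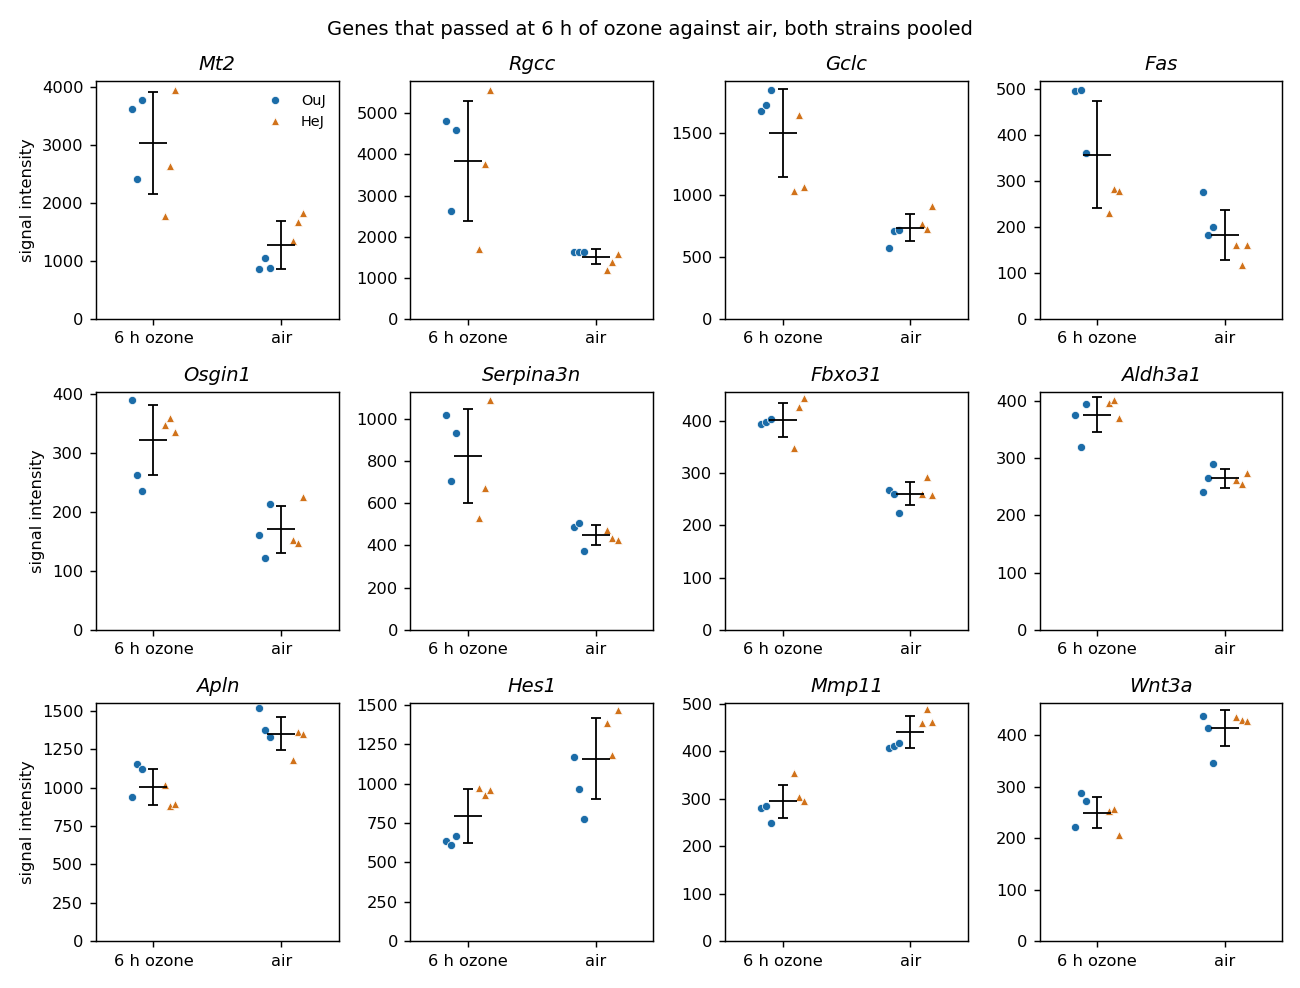
Signal intensity of the 12 genes that passed (y axis, linear from 0) on the 6 ozone arrays, left, and the 6 air arrays, right, with OuJ as circles and HeJ as triangles, 1 point per mouse, and the mean ± SD of each group of 6 in black. In 11 panels the points of a strain do not overlap between ozone and air, and in the Mt2 panel 1 HeJ ozone point at 1775 lies among the HeJ air points of 1337 to 1827.

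The glucocorticoid-responsive genes had higher values as a group, and 1 member passed. Of 30 tested members 29 had positive values, beside 3498 of the 8008 genes tested. The median change was 0.70 beside -0.02 for all genes, and it lay between 0.50 and 0.92 under all alternatives run. Of the 30, 1 passed, higher, beside 0.0999% of all genes. This was Mt2, which the metallothionein list also holds. The list was chosen with results of these arrays known, so its direction is a description. Members separated in both strains were 5 upwards and 0 downwards, beside 0.862% and 1.05% of all genes. Fkbp5, a chaperone partner that dampens the glucocorticoid receptor, had signals of 2942, 687 and 2254 in OuJ ozone and 493, 716 and 1444 in HeJ ozone, against 439.7, 456 and 476 in OuJ air and 404, 397 and 479.5 in HeJ air. All ozone arrays lay above all air arrays, yet their spread was wide, and the change was 1.36 ± 0.31, adjusted p = 0.0743. A second probe set gave 1.33. Tsc22d3, the leucine zipper protein GILZ that mediates anti-inflammatory effects of the hormone, had 7174, 3789 and 5870.3 in OuJ ozone and 2360.5, 4189.8 and 5960.5 in HeJ ozone, against 1849, 2176 and 3061 in OuJ air and 1202, 2585 and 1889 in HeJ air. HeJ ozone replicate 1 lay within the HeJ air range, and the change was 1.16 ± 0.23, adjusted p = 0.0574. Its 2 other probe sets gave 0.96 and 0.18. Zbtb16, a zinc finger transcription factor, had the largest change of all genes tested, 1.61 ± 0.39, adjusted p = 0.0813: signals were 755, 336 and 901 in OuJ ozone and 102, 615 and 964 in HeJ ozone, against 147, 161 and 184 in OuJ air and 142, 108 and 185 in HeJ air. HeJ ozone replicate 1 was below every air array. Glutamine synthetase Glul (0.97 ± 0.19, adjusted p = 0.0564) and the transcription factor Klf9 (0.70 ± 0.14, adjusted p = 0.0574) were just outside the threshold. The clock repressor Per1, also a direct target of the receptor, stood at 0.59 ± 0.12, adjusted p = 0.0651.

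The spread within the ozone groups was shared by the list. Its level, the mean of log2(signal + 16) over the 30 members, exceeded the mean of the air arrays of the same strain by 1.19, 0.47 and 1.01 in OuJ ozone replicates 1, 2 and 3, and by 0.01, 0.50 and 1.14 in HeJ ozone replicates 1, 2 and 3. Of the 30 members, 30, 22 and 28 lay above all 3 own-strain air arrays in those OuJ replicates, and 7, 24 and 28 in the HeJ replicates. HeJ ozone replicate 1 also had 8 members below all of its air arrays. Replicates 1 and 3 of OuJ and 3 of HeJ thus had the highest values, OuJ replicate 2 and HeJ replicate 2 intermediate ones, and HeJ replicate 1 a value like air. The count of genes that passed was 53 without OuJ replicate 2, 179 without HeJ replicate 1 and 6 without HeJ replicate 2. The 5' to 3' ratios differed between these arrays too. For Gapdh they were 0.895, 0.931 and 0.841 in OuJ ozone replicates 1, 2 and 3, and 0.714, 0.586 and 0.621 in HeJ ozone replicates 1, 2 and 3. For actin they were 0.806, 0.911 and 0.759 in OuJ and 0.694, 0.642 and 0.691 in HeJ. OuJ replicate 2 and HeJ replicate 1, lowest for the list within their strain, thus had the highest ratios of their strain's ozone arrays. The part of RNA quality in the spread of the list was not tested.

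**Figure D3:**
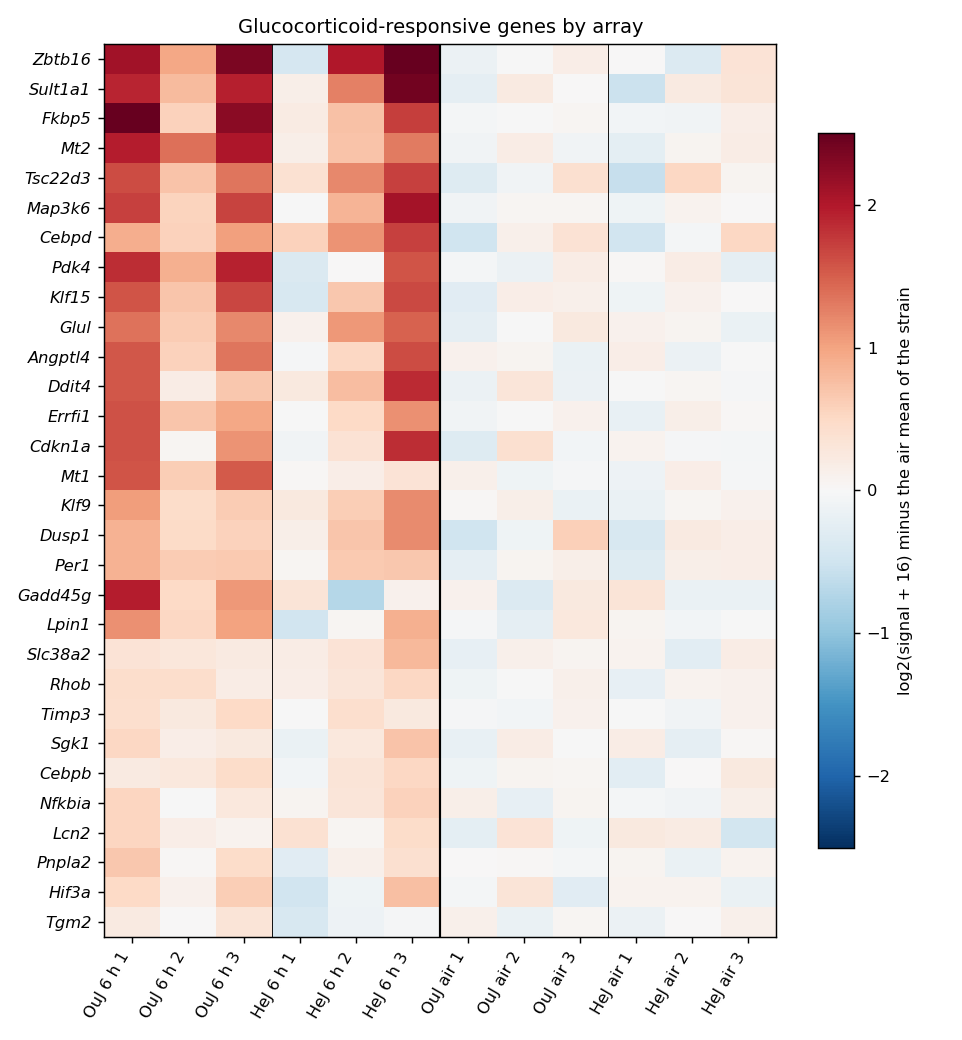
Heat map of the 30 tested glucocorticoid-responsive genes (rows, by falling pooled change) on the 12 arrays (columns, ozone left and air right), as log2(signal + 16) minus the air mean of the strain, with red for higher and blue for lower and the darkest shades for 2.5 or more in size. The columns of OuJ ozone replicates 1 and 3 and HeJ ozone replicate 3 are the reddest, with mean levels of 1.19, 1.01 and 1.14 above air, and that of HeJ ozone replicate 1, at 0.01, resembles the air columns.

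An exact match to the full palindromic glucocorticoid response element, searched on both strands, was rare in the promoter windows: 1 of the 8422 promoters of tested genes held it (0.0119%), that of Sgk1, and 3 of all 32851. Sgk1, the serum- and glucocorticoid-regulated kinase, is a list member with several starts in RefSeq, and the windows of its other starts hold no match. The gene was chosen after its values were seen. The window that holds the match is shown with the match in capitals. It lies at chr10:21993640-21993889 (+ strand) of GRCm38.p6, from RefSeq, and the match starts 189 bases before the start.
Sgk1: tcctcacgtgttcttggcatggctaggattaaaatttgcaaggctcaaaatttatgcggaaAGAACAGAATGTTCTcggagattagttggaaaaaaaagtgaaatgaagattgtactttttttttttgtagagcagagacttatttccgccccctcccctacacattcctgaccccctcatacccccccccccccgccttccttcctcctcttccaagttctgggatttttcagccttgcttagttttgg
Sgk1 itself had signals of 1463 to 2890.1 (median 2319) after 6 h of ozone, against 1404 to 2302 (median 1814) in air, which overlapped, and stood at 0.29 ± 0.13, adjusted p = 0.365. Many receptor sites lie far from the start of a gene, and these windows hold 250 bases.

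Genes of the first hour of a stimulus and clock genes had values on either side of 0. None of the 25 immediate early genes passed, 15 had positive values, beside 3498 of the 8008 genes tested, and the median was 0.10. It was 0.00 in OuJ and 0.34 in HeJ. By array, the level of the list relative to own-strain air was -0.12, -0.01 and 0.06 in OuJ ozone replicates 1, 2 and 3, and 0.19, 0.24 and 0.40 in HeJ ozone replicates 1, 2 and 3. The 3 HeJ ozone arrays lay above all HeJ air arrays, while the OuJ ozone arrays lay within the OuJ air range. This difference between the strains was not tested for the list. Cyclooxygenase 2 (Ptgs2), which makes prostaglandin precursors, stood at 0.78 ± 0.19, adjusted p = 0.0861. Its signals were 119 to 228 (median 184) after 6 h of ozone, against 63.3 to 163 (median 89.5) in air, and the groups were separated within each strain. Rgs2, a brake on G protein signalling, had a negative value of -0.60 ± 0.13, adjusted p = 0.0651. Of 14 clock genes none passed, and the median was 0.06. The output factor Tef had 5897 to 7167 (median 6457) after 6 h of ozone, against 5193 to 5627 (median 5426) in air, with no overlap, and a small change of 0.25 ± 0.07, adjusted p = 0.109. Dbp of the same family had -0.44 ± 0.20, adjusted p = 0.373, in the opposite direction.

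Acute phase transcripts had positive values, and Serpina3n passed. Serpina3n (Entrez gene 20716), a serine protease inhibitor of the acute phase, had signals of 528 to 1089.9 (median 816) after 6 h of ozone, against 371 to 504 (median 454) in air. All ozone arrays lay above all air arrays, and the change was 0.81 ± 0.15, adjusted p = 0.0406. The 13 tested members of the list of acute phase and secreted defence proteins all had positive values, beside 3498 of the 8008 genes tested. Their median was 0.27, and 1 passed, beside 0.0999% of all genes. Haptoglobin (Hp, which binds free haemoglobin) stood at 0.30 ± 0.08, adjusted p = 0.111, the inhibitor heavy chain Itih4 at 0.36 ± 0.08, adjusted p = 0.0696, and ceruloplasmin (Cp, a copper-carrying ferroxidase) at 0.20 ± 0.07, adjusted p = 0.231. In all 3 the HeJ air arrays were brighter than the OuJ air arrays. By array, the level of this list exceeded own-strain air by 0.43, 0.32 and 0.55 in OuJ and by 0.06, 0.21 and 0.20 in HeJ.

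Cxcl1, the chemokine that draws neutrophils, had low signals of 103 to 291 (median 164) after 6 h of ozone, against 17.4 to 88.4 (median 70.7) in air. The groups did not overlap, and the change of 1.22 ± 0.28 did not pass (adjusted p = 0.0742). All 4 tested neutrophil-recruiting CXC chemokines had positive values, beside 3498 of the 8008 genes tested, and none passed. Beside Cxcl1, Cxcl5 stood at 0.91 ± 0.89, Cxcl15 at 0.10 ± 0.10 and Ppbp at 0.08 ± 0.13, given outside the naming rule to complete the group. The 11 other chemokines and cytokines had a median of 0.01. The median of the whole list of 15 was 0.15 in OuJ and -0.08 in HeJ. By array, its level relative to own-strain air was 0.13, 0.31 and 0.48 in OuJ ozone replicates 1, 2 and 3, and 0.28, -0.01 and -0.02 in HeJ ozone replicates 1, 2 and 3, so positive values were found in OuJ and in HeJ replicate 1. Cxcl12, a homeostatic chemokine made by stroma and endothelium, had a negative value of -0.49 ± 0.14, adjusted p = 0.118, separated in both strains. Of the 22 tested genes of TLR4 and NF-kB signalling none passed, and the median was 0.04. Bcl3, a nuclear partner of NF-kB subunits, had 177 to 286 (median 212) after 6 h of ozone, against 54 to 175 (median 113) in air, without overlap, and stood at 0.88 ± 0.20, adjusted p = 0.0714. The inhibitor Nfkbia stood at 0.29 ± 0.10, adjusted p = 0.247, and the lipopolysaccharide co-receptor Cd14 at 0.27 ± 0.11, adjusted p = 0.318. Nfkbia is also in the glucocorticoid list, and Cd14 in the acute phase list.

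Lymphocyte, MHC class II and interferon-responsive transcripts had mostly negative values, and none passed. B cell markers had the lowest median of the 34 lists, -0.54 over 9 tested genes, of which 8 were negative and 2 separated downwards in both strains, beside 1.05% of all genes. Cd79a, a signalling chain of the B cell receptor, had signals of 396 to 718 (median 536) after 6 h of ozone, against 729 to 1069 (median 841) in air. Every ozone array lay below every air array, and the change was -0.67 ± 0.14, adjusted p = 0.0651. Cd79b, its partner chain, stood at -0.54 ± 0.14, adjusted p = 0.109, and the inhibitory co-receptor Cd22 at -0.47 ± 0.12, adjusted p = 0.102. Over 11 T and NK cell markers the median was -0.31, with 9 negative. Of all 8008 genes tested, 4510 were negative. Cd3g of the T cell receptor complex (-0.43 ± 0.11, adjusted p = 0.0859) and the cytotoxic granule protein Nkg7 (-0.53 ± 0.15, adjusted p = 0.123) were the 2 separated downwards in both strains, again beside 1.05%. The T cell membrane protein Ms4a4b had -0.76 ± 0.20, adjusted p = 0.11. Relative to own-strain air, the mean level of the B cell list was -0.75, -0.05 and -0.73 in OuJ ozone replicates 1, 2 and 3, and -0.19, -0.32 and -0.38 in HeJ ozone replicates 1, 2 and 3. OuJ replicate 2 thus lay near air here, and it also had a lower glucocorticoid list level than the other OuJ ozone arrays. For T and NK cells the values were -0.20, -0.12 and -0.50 in OuJ and -0.20, -0.25 and -0.86 in HeJ. The part of the spread of the glucocorticoid list in the B cell values was not tested.

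The 9 tested genes of MHC class II presentation had a median of -0.27, with 8 negative. H2-DMa, a chain of the peptide-loading chaperone, stood at -0.48 ± 0.13, adjusted p = 0.127, the class II transactivator Ciita at -0.48 ± 0.19, adjusted p = 0.292, and H2-DMb2, the other chain of the chaperone, at -0.33 ± 0.12, adjusted p = 0.244 with separation in both strains. Of 31 interferon-responsive genes 28 were negative, with a median of -0.18. Irf8, a transcription factor of myeloid and B cells, had 692 to 1027 (median 789) after 6 h of ozone, against 948 to 1178 (median 1130.3) in air and stood at -0.39 ± 0.09, adjusted p = 0.0742. It was separated within each strain. The guanylate-binding protein Gbp2b (-0.49 ± 0.13, adjusted p = 0.12) and the peptide transporter Tap1 (-0.42 ± 0.13, adjusted p = 0.166) had values of like size. Beside these lists, 4510 of the 8008 genes tested were negative.

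**Figure D4:**
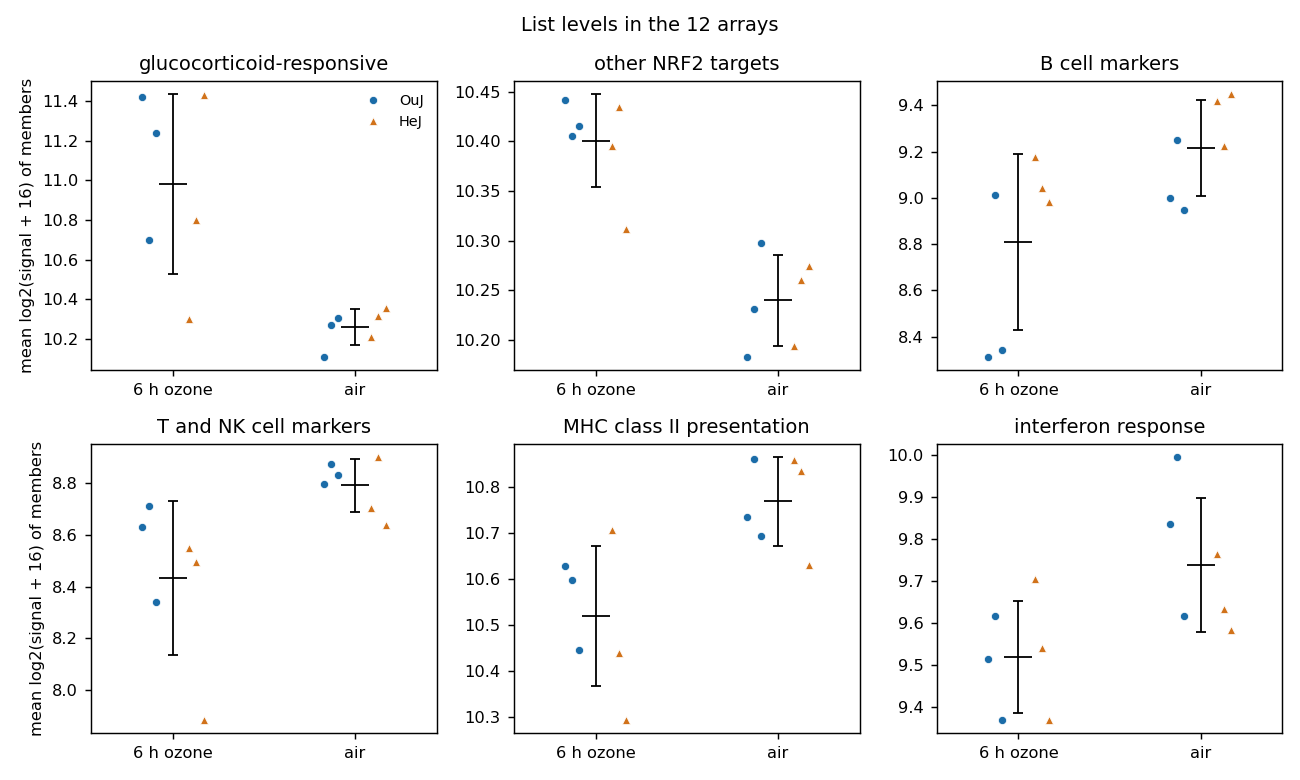
Mean of log2(signal + 16) over the tested members of 6 lists (y axis, a separate range per panel that does not start at 0) on the 6 ozone arrays, left, and the 6 air arrays, right, with OuJ as circles, HeJ as triangles and the mean ± SD of each group of 6 in black. Levels of the glucocorticoid list ran over 10.30 to 11.43 in the ozone arrays and 10.11 to 10.36 in the air arrays, and those of the B cell list over 8.31 to 9.18 in the ozone arrays and 8.95 to 9.45 in the air arrays, so the arrays overlap in both panels.

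Neutrophil markers were negative in 6 of 7, and macrophage markers lay on either side of 0. The 7 tested neutrophil markers had a median of -0.19, and of all 8008 genes tested 4510 were negative. S100a9, a calprotectin subunit abundant in neutrophils, had 415 to 947 (median 594) after 6 h of ozone, against 758 to 1361 (median 974) in air, and stood at -0.73 ± 0.16, adjusted p = 0.0714, and its partner S100a8 at -0.40 ± 0.14, adjusted p = 0.241. These values were negative. Those of the tested neutrophil-recruiting chemokines were positive, but apart from that of Cxcl1 they were about the size of their SE or smaller. Several defining neutrophil genes, such as Mpo, Elane, Ly6g and Camp, were not among the genes tested. Over 16 macrophage and monocyte markers the median was -0.02, and its sign differed between alternatives. Lipoprotein lipase (Lpl), which alveolar macrophages make, had 2754 to 7494 (median 5345) after 6 h of ozone, against 2291 to 3847 (median 2654) in air, and stood at 0.87 ± 0.21, adjusted p = 0.0804. Plac8 of monocytes stood at -0.69 ± 0.15, adjusted p = 0.0651, and the monocyte chemokine receptor Ccr2 at -0.57 ± 0.24, adjusted p = 0.336.

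**Figure D5:**
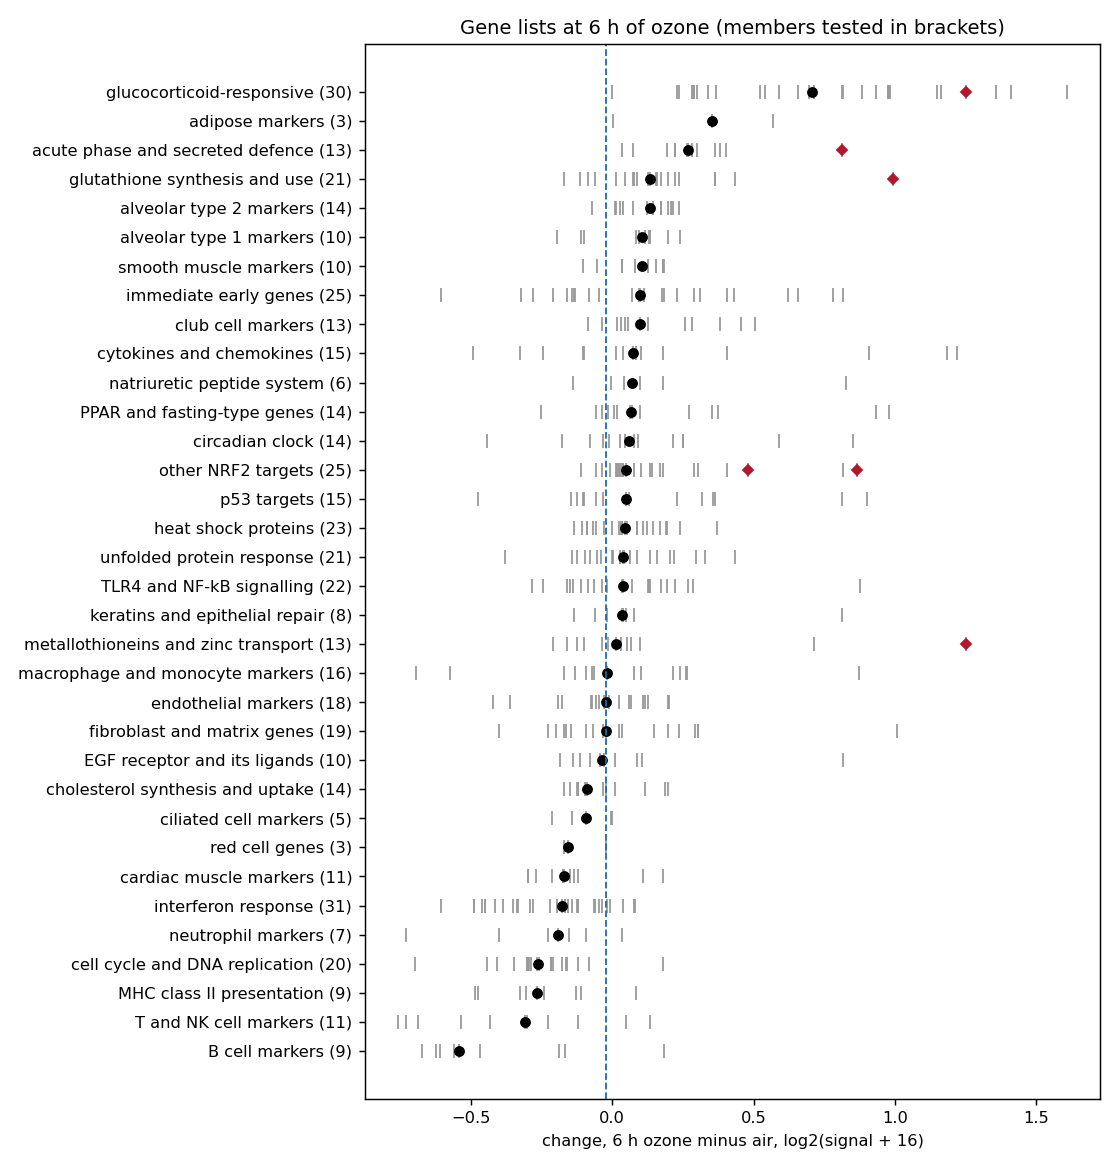
Change after 6 h of ozone relative to air (x axis, log2(signal + 16)) of the tested members of the 34 gene lists, with grey ticks for members that did not pass, red diamonds for those that did, black points for list medians and a dashed line for the median of all genes, -0.02. Medians run from 0.70 for the glucocorticoid list, at the top, to -0.54 for the B cell list, at the bottom.

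Lists of markers of the resident cells of the lung had medians between -0.09 and 0.13. No member of the alveolar type 2, type 1, club, ciliated, endothelial, smooth muscle or matrix lists passed. The medians were 0.13 for 14 alveolar type 2 genes, 0.11 for 10 type 1 genes and 0.10 for 13 club cell genes, with 13, 7 and 11 positive beside 3498 of the 8008 genes tested, and quantile normalization lowered them to 0.07, 0.04 and 0.03. The phosphate transporter Slc34a2 (0.24 ± 0.07, adjusted p = 0.188) and the surfactant collectin Sftpd (0.21 ± 0.08, adjusted p = 0.278) led the type 2 genes. Ciliated cell genes had a median of -0.09 over 5, and smooth muscle genes 0.10 over 10. Both medians differed in sign between the strains, at -0.15 in OuJ and 0.09 in HeJ for ciliated cells, and 0.25 in OuJ and -0.04 in HeJ for smooth muscle. So did those of type 1 genes (0.10 in OuJ and -0.001 in HeJ), endothelial genes (0.04 in OuJ and -0.09 in HeJ) and matrix genes (0.10 in OuJ and -0.06 in HeJ). The highest club cell value was 0.50 ± 0.24, adjusted p = 0.4, for the flavin monooxygenase Fmo2, which falls outside the naming rule and was chosen after its value was seen. In the 18 endothelial genes, with a median of -0.02, Kdr, the main receptor of vascular endothelial growth factor, had 2198 to 3815 (median 2991) after 6 h of ozone, against 3649 to 4602 (median 3800.2) in air. Its change of -0.42 ± 0.10 did not pass (adjusted p = 0.0798), and the endothelial transcription factor Sox17 stood at -0.36 ± 0.11, adjusted p = 0.17. Among 19 matrix genes (median -0.02), Lox, which cross-links collagen and elastin, had 1647, 946 and 2065 in OuJ ozone and 789, 1230.2 and 5257 in HeJ ozone, against 672, 925 and 500.2 in OuJ air and 989, 1084 and 707 in HeJ air. HeJ ozone replicate 3 stood far above the rest, and the change was 1.01 ± 0.34, adjusted p = 0.222. Biglycan (Bgn), a matrix proteoglycan, was separated upwards in both strains at 0.23 ± 0.07, adjusted p = 0.122.

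Genes of other tissue that a lobe can hold set 1 array apart. Cardiac muscle genes, which mouse pulmonary veins express, had levels relative to own-strain air of -0.35, 0.37 and 0.49 in OuJ ozone and -0.36, -1.21 and 0.22 in HeJ ozone. Adipose genes had 0.43, 0.01 and 0.46 in OuJ ozone and -0.07, 1.28 and -0.26 in HeJ ozone. HeJ ozone replicate 2 was thus the lowest for cardiac and the highest for adipose genes, and it is 1 of the 2 arrays whose code has a suffix. Over the groups, the mean level of the 11 cardiac genes ranged over 8.40 to 10.17 in the ozone arrays and 9.44 to 10.03 in the air arrays, with a median change of -0.17, and that of the 3 adipose genes over 8.54 to 10.08 in the ozone arrays and 8.53 to 8.84 in the air arrays. Their part in the results above was not tested, beyond the count of 6 genes that passed without HeJ ozone replicate 2.

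Stress, growth and metabolic lists held no gene that passed. The 23 heat shock genes had a median of 0.04. The inducible Hsp70 genes Hspa1a and Hspa1b are near-identical copies whose probe sets may share transcript, so their separate values are uncertain. Hspa1a had 114, 147 and 141 in OuJ ozone and 169, 135 and 502 in HeJ ozone, against 109, 99.5 and 713 in OuJ air and 122, 94.8 and 148 in HeJ air. Hspa1b had 179, 452 and 395 in OuJ ozone and 375, 288 and 991 in HeJ ozone, against 276, 227 and 1821 in OuJ air and 199.9, 216 and 130.5 in HeJ air. OuJ air replicate 3 was the brightest array for both, followed by HeJ ozone replicate 3, and the changes were 0.14 ± 0.43, adjusted p = 0.927, and 0.37 ± 0.49, adjusted p = 0.81. Of 21 genes of the unfolded protein response (median 0.04), Herpud1, which serves the degradation of proteins from the endoplasmic reticulum, stood at 0.43 ± 0.10, adjusted p = 0.0773, and the stress factor Ddit3 at -0.38 ± 0.10, adjusted p = 0.118. The p53 targets had a median of 0.05 over 15, with Trp53inp1 at 0.90 ± 0.22, adjusted p = 0.0813. The cell cycle inhibitor Cdkn1a, which the glucocorticoid list also holds, stood at 0.81 ± 0.29, adjusted p = 0.231. The death receptor gene Fas, which passed, was in none of the gene lists, so the p53 list does not cover it. Genes of mitosis and DNA replication were negative in 19 of 20, beside 4510 of the 8008 genes tested, with a median of -0.26. The replication helicase subunit Mcm5 had -0.44 ± 0.17, adjusted p = 0.282. By array this list stood at 0.04, -0.26 and -0.14 relative to own-strain air in OuJ and at -0.17, -0.40 and -0.59 in HeJ.

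Among the remaining lists, the PPAR and fasting-type genes had a median of 0.07 over 14, with 2 larger values that the glucocorticoid list also holds: Pdk4, which closes the pyruvate dehydrogenase gate to glucose (0.98 ± 0.31, adjusted p = 0.179), and the lipase inhibitor Angptl4 (0.93 ± 0.23, adjusted p = 0.0813). Cholesterol synthesis genes had -0.09 over 14, and Fdft1, which makes squalene, was at 0.19 ± 0.08, adjusted p = 0.367. The EGF receptor list had -0.04 over 10. The receptor's feedback inhibitor Errfi1, which the glucocorticoid list also holds, stood at 0.82 ± 0.18, adjusted p = 0.0708. Keratins and repair genes had 0.04 over 8, and the 3 red cell genes -0.16. In the natriuretic peptide system (median 0.07 over 6), Npr3, the clearance receptor, had 3046, 1495 and 3013 in OuJ ozone and 915, 1126 and 1751 in HeJ ozone, against 740.1, 562 and 668 in OuJ air and 1705, 1203 and 1327 in HeJ air. OuJ ozone arrays lay above OuJ air arrays and HeJ ozone arrays mostly below HeJ air arrays, so the pooled change of 0.83 ± 0.32, adjusted p = 0.278, averages a positive and a negative value.

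Pooling assumes that the strains share a change, and this was examined gene by gene. The difference of the OuJ and HeJ changes passed for 0 of 8008 genes (0%) in limma, with 425 at an unadjusted p under 0.05. Npr3 had the smallest p: its change was 1.85 ± 0.26 in OuJ and -0.20 ± 0.26 in HeJ, a difference of 2.05 ± 0.37, adjusted p = 0.534. The next were Eps8, an actin-regulating EGF receptor substrate (-0.77 ± 0.16 in OuJ and 0.25 ± 0.16 in HeJ), the cytoskeletal linker Dst (0.79 ± 0.14 in OuJ and -0.08 ± 0.14 in HeJ), the mesenchymal homeobox factor Meox2 (-1.25 ± 0.19 in OuJ and -0.10 ± 0.19 in HeJ) and Coq4 of ubiquinone synthesis (-1.36 ± 0.32 in OuJ and 0.52 ± 0.32 in HeJ), each with an adjusted p of 0.87 for the difference. A p that misses the threshold does not show that the strains responded alike. For the 12 genes that passed, the difference was largest for Mt2 (1.06 ± 0.33) and Gclc (0.78 ± 0.23), both with the higher value in OuJ, and lay between -0.17 and 0.24 for the other 10. Tested on their own arrays, 5 genes passed in OuJ and 0 in HeJ, where 526 had an unadjusted p under 0.05.

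The 24 and 48 h arrays share the air arrays of the 6 h comparison and carry sample codes of other series, so their values are set beside the 6 h ones without a comparison. Mt2, with 1.78 in OuJ and 0.72 in HeJ at 6 h, had 2.25 in OuJ and 2.00 in HeJ at 24 h, and 1.26 in OuJ and 1.49 in HeJ at 48 h. Gclc, with 1.38 in OuJ and 0.60 in HeJ, had 1.74 in OuJ and 1.05 in HeJ at 24 h, and 1.65 in OuJ and 1.61 in HeJ at 48 h. Serpina3n, with 0.93 in OuJ and 0.70 in HeJ, had 1.81 in OuJ and 2.27 in HeJ at 24 h, and 1.82 in OuJ and 1.79 in HeJ at 48 h. These genes of metal binding, glutathione synthesis and the acute phase had positive values in both strains at every time. Fbxo31, with 0.64 in OuJ and 0.56 in HeJ at 6 h, had 0.36 in OuJ and 0.36 in HeJ at 24 h, and 0.13 in OuJ and -0.02 in HeJ at 48 h. For Fas the values were 1.00 in OuJ and 0.79 in HeJ at 6 h, 0.20 in OuJ and 0.87 in HeJ at 24 h, and 0.07 in OuJ and 0.59 in HeJ at 48 h. Rgcc had 1.00 in OuJ and 1.43 in HeJ at 24 h, and 0.70 in OuJ and 0.22 in HeJ at 48 h. Of the genes that fell, Mmp11 (-0.57 in OuJ and -0.55 in HeJ at 6 h) had -1.24 in OuJ and -1.27 in HeJ at 24 h, and -0.80 in OuJ and -1.15 in HeJ at 48 h, and Wnt3a had -0.78 in OuJ and -0.80 in HeJ at 24 h, and -0.57 in OuJ and -0.62 in HeJ at 48 h. The glucocorticoid list had medians of 0.86 in OuJ and 0.50 in HeJ at 6 h, 0.79 in OuJ and 0.66 in HeJ at 24 h, and 0.45 in OuJ and 0.10 in HeJ at 48 h. The B cell list had -0.64 in OuJ and -0.42 in HeJ at 6 h, -1.46 in OuJ and -1.01 in HeJ at 24 h, and -0.90 in OuJ and -0.91 in HeJ at 48 h.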

How the data were processed

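Total RNA of individual left lung lobes was extracted with TRIZOL and RNeasy, and 7.5 ug of each was labelled with biotin and hybridized to 1 Affymetrix array per mouse, per the labels' protocols. The deposited values are signal intensity values on a linear scale for 22690 probe sets, made by the authors with GCOS 1.4, per the submitters' processing notes. The sources used here do not give its settings. The common scale was checked: trimmed of 2% in each tail, the mean of the 12 arrays was 500.1439 to 500.1623. Every column belongs to a labelled sample. Groups came from the labels alone, in which replicates are separate mice.

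From these deposited intensities log2(signal + 16) was computed. A probe set was kept if its signal exceeded 218.3, the median over the whole file, on 3 or more of the 24 arrays, which left 12866. In the platform annotation 20380 probe sets have 1 gene symbol (20359 matched RefSeq), 691 several and 1555 none, beside 64 controls. Of those kept 11843 had 1 symbol, and the probe set with the highest mean stood for each of 8008 genes (2645 had several). The fit used limma 3.58.1 in R 4.3.3 (files read with the data.table package, version 1.17.8) on the 12 arrays, with exposure and strain as additive terms and an intensity trend in the moderated variances. P-values are two-sided with Benjamini-Hochberg adjustment over all genes, with a threshold of 0.05. A second fit added the interaction of strain and exposure. The code was tested on simulated data with 200 changed genes.

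The comparison, the 34 gene lists (477 different genes tested) and the genes always named were chosen with earlier results of these data known. Lists are described by counts and medians, with no test. Named are Tlr4, up to 12 rises and 12 falls among genes that passed and were separated in both strains, up to 8 passed and 3 other members per list by p, the 5 smallest p of the strain difference, and 10 genes kept throughout, such as Mt1, Npr3 and Hspa1a. Motifs were searched on both strands in the 250 bases before each RefSeq start (GRCm38.p6), and 6487 of the 8008 genes had such a window. Alternatives were other scalings, pseudocounts of 1 and 64, filters, probe set rules, variance models, array weights, all 24 arrays, the replicate block, the Gapdh ratio as a covariate, single strains, leaving out arrays, and, chosen after seeing the data, a threshold of 0.1 and leave-one-out for the control ratios. The 72 h named in the labels was not analysed here.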

Additional observations from a re-analysis of the deposited data

Results flagged for a closer look

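In 5 of the named genes every ozone array of 1 strain lay on one side of the mean of its air arrays and every ozone array of the other strain on the opposite side. This was 4.13% of the 121 named genes, beside 535 of all 8008 genes tested, or 6.68%. Eps8 and Coq4 were named for the small p of their strain difference, so their opposite values were chosen and are a description. The OuJ change minus the HeJ change was -1.40 ± 0.81 for Hspa1a and -1.94 ± 0.87 for its near-identical copy Hspa1b (interaction test in limma, adjusted p = 0.87 and 0.87). Hspa1b had 179, 452 and 395 in OuJ ozone and 375, 288 and 991 in HeJ ozone, against 276, 227 and 1821 in OuJ air and 199.9, 216 and 130.5 in HeJ air, so the mean of OuJ air rests on replicate 3. For Npr1, the guanylate cyclase receptor of atrial natriuretic peptide, the difference was 0.64 ± 0.40 (adjusted p = 0.877). It was -1.02 ± 0.23 for Eps8 (adjusted p = 0.87) and -1.88 ± 0.45 for Coq4 (adjusted p = 0.87), with signals of Coq4 of 63.3, 76.4 and 62.6 in OuJ ozone and 153, 179 and 109 in HeJ ozone, against 172, 146 and 304 in OuJ air and 80.6, 73.5 and 145 in HeJ air. None of the 5 passed the interaction test.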

How the results depend on the processing

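The count of 12 genes was 14 with quantile normalization, with the mean of a gene's probe sets and with all probe sets, and 12 with pseudocounts of 1 and 64 and with 2 other filters. It was 24 with median centring, 21 higher and 3 lower in place of 8 and 4, 5 with no filter (more genes tested) and 6 with no intensity trend. Array weights gave 54, a fit on all 24 arrays 94, the Gapdh ratio as a covariate 101, and the threshold of 0.1, chosen after seeing the data, 102. Without the arrays with a code suffix it was 0, and with OuJ arrays alone 5 and HeJ arrays alone 0, where fewer arrays entered the fit (944 and 526 genes at an unadjusted p under 0.05 in the limma fits that gave 0). Leaving out 1 array at a time gave 5 to 179. Apart from those that construction shows, the cause of these shifts was not tested. Of 29 alternatives, Gclc passed in 27, Fas, Fbxo31 and Wnt3a in 26, Mmp11 in 25, Mt2 in 18, Osgin1 in 17, Hes1 and Aldh3a1 in 16, Serpina3n in 14, Rgcc in 13 and Apln in 12, and none of the 12 changed direction. A fit with the replicate block gave 40 genes, and one with the replicate block within strain 55. Deviations of arrays with the same number correlated at 0.01, 0.06 and 0.09 in OuJ and at 0.10, -0.01 and -0.02 in HeJ. The same-numbered air array correlated best for every OuJ ozone array and for HeJ ozone replicate 1, but not for HeJ ozone replicates 2 and 3. With 3 arrays per group, these small values cannot decide whether the numbers pair the mice. The strain difference passed for 0 genes in most alternatives, also with the replicate block, for 1 with array weights and 1 with all 24 arrays, and for 0 to 4 when arrays were left out (4 without OuJ ozone replicate 2 and 1 without HeJ air replicate 3). The log2 difference of the Gapdh ratio lay between 0.0984 and 0.179 with 1 array left out, with an exact p of 0.035 without OuJ air replicate 2, and that of actin between -0.0531 and 0.0213. Over all named genes 3237 values kept their direction and side of the threshold, 130 passed newly, 112 no longer passed and 8 moved otherwise. List medians moved beyond the spread of the arrays in 19 cases and stayed within it in 967. Probe sets near background have the least reliable values, and no detection calls were among the values used.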
